A study of Homo sapiens with 3 samples.

Results

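The S100 proteins are small calcium-binding proteins, and 10 of their genes are described here in CAL 27, a cell line from a poorly differentiated squamous cell carcinoma of the tongue. The members are S100A2, S100A4, S100A7, S100A8, S100A9, S100A10, S100A11, S100A13, S100A14 and S100P, and every probe set annotated to one of them alone was taken. These were 12 probe sets of the 22283 on the Affymetrix array. They stood for 10 of the 11963 genes measurable by a probe set not shared with other genes, with 1 probe set each for 8 members and several for S100A8 and S100A13. The 10 members were among the 7986 genes counted as measured, that is, over a floor of 28.3 signal units on 1 or more of the 3 arrays.

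The 3 groups were CAL 27 cells stably transfected with a plasmid for GFP-tagged Nm23-H1, cells stably transfected with pEGFPC1-nm23-H2, and cells stably transfected with the empty pEGFPC1 vector, which make GFP alone. NME1 is the gene of Nm23-H1 and NME2 that of Nm23-H2, 2 closely related enzymes that pass phosphate between nucleotides. The study asked for targets downstream of Nm23-H1. Each group was measured once, on 1 array, so there are no replicates and no p-values. The design text describes the vector cells as 1 clone, names clones for nm23-H1 and does not mention nm23-H2. A difference between arrays is therefore also a difference between separately grown transfectants, and construct and transfectant cannot be told apart.

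S100 proteins carry a pair of EF-hand motifs and mostly work as dimers that change shape on binding calcium and then grip a partner protein. S100A8 and S100A9 pair with each other to form calprotectin, a metal-withholding protein abundant in neutrophils and monocytes and made by squamous epithelium under stress. Once outside the cell, several members signal through the receptors RAGE and TLR4. Many S100 genes lie next to one another on human chromosome 1, within the epidermal differentiation complex, which also holds genes of the cornified envelope of the skin.

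NME1 was read at 2379 signal units in the nm23-H1 transfectant, 1132 in the nm23-H2 transfectant and 1519 in the vector cells. The NME2 probe set, shared with the NME1-NME2 read-through, gave 2323, 4845 and 2272 signal units in the same order. Each gene was highest on the array labelled with it. Of the squamous keratinocyte markers, 7 of 10 could be read, and all 7 were above the floor on all 3 arrays, with KRT14, a basal keratin, at 8932 (nm23-H1), 12890 (nm23-H2) and 9823 (vector) signal units. Between 47.4% and 51.6% of the probe sets of an array lay above the floor.

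Only error between probe sets of 1 gene could be measured. The log2 differences of a gene's brightest 2 probe sets disagreed with an SD, divided by the square root of 2, of 0.33 where nm23-H1 was set against vector (1623 genes). The SD was 0.36 where nm23-H2 was set against vector (1514 genes) and 0.39 between the 2 constructs (1519 genes). For nm23-H1 against vector this SD was 0.37 where the dimmer probe set lay under 100 signal units and 0.16 where it lay over 1000, and for nm23-H2 against vector it was 0.19 over 1000. It covers neither cultures nor hybridisations and is called probe error below.

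S100A8, S100A9 and S100A7 were the members that differed by 2-fold or more, lowest with nm23-H1 and highest with nm23-H2. S100A8, one chain of calprotectin, stood at 229 signal units with nm23-H1, 5493 with nm23-H2 and 1904 with vector. S100A9, the other chain, stood at 88.2 with nm23-H1, 1952 with nm23-H2 and 504 with vector. S100A7, or psoriasin, an antimicrobial protein of skin, gave 18.6 signal units with nm23-H1, which is under the floor, 203 with nm23-H2 and 117 with vector. The same order, nm23-H2 above vector above nm23-H1, held for these 3 probe sets.

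Against vector, S100A8 was 8.33-fold lower with nm23-H1 (log2 difference -3.06) and 2.88-fold higher with nm23-H2 (1.53). These were 9.29 and 4.26 times the probe error. S100A9 was 5.71-fold lower with nm23-H1 (-2.51) and 3.87-fold higher with nm23-H2 (1.95), which was 7.64 and 5.44 times the probe error. S100A7 was at least 4.12-fold lower with nm23-H1 (-2.04), a bound because that array was at the floor. With nm23-H2 it was 1.74-fold the vector level (0.80), under 2-fold but 2.22 times the probe error. Both comparisons share the vector array, so a low or high reading there would enter each of them.

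The direct comparison of the 2 transfectants does not use a gene's vector signal, although the vector array enters the common scaling and the floor. S100A8 was 24.0-fold lower with nm23-H1 than with nm23-H2 (log2 difference -4.59), S100A9 was 22.1-fold lower (-4.47), and S100A7 at least 7.16-fold lower (-2.84). Among the 7986 measured genes, with bounds counted at their value, S100A8 and S100A9 stood at places 2 and 3 from the lowest difference. For nm23-H1 against vector they stood at places 4 and 7 from the lowest. S100A7, being a bound in both, has no exact place. For nm23-H2 against vector S100A9 was at place 36 and S100A8 at place 81 from the highest, and S100A7 at place 473.

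**Figure D1:**
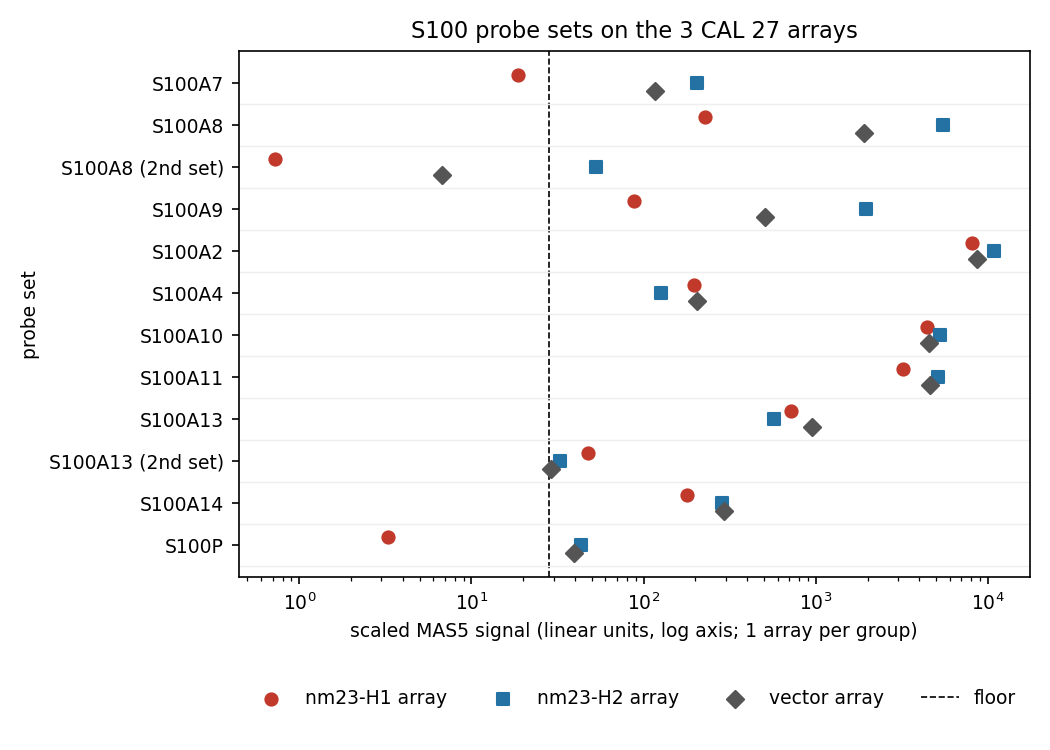
Scaled MAS5 signal of each of the 12 S100 probe sets (log axis) on the nm23-H1, nm23-H2 and vector arrays, 1 array per group. The dashed line is the floor of 28.3 signal units. The points of S100A7, S100A8, S100A9 and S100P are spread widely, with the nm23-H1 points of S100A7 and S100P under the floor. Those of S100A2 and S100A10 nearly coincide.

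Setting nm23-H1 against vector, 3 of 10 members were past the 2-fold line on the lower side and 0 on the higher. Of all measured genes 1.73% were lower, 2.14% higher and 3.87% different either way. In the nm23-H2 cells 2 of 10 members were higher than vector by 2-fold or more and 0 lower, where 3.59% of all measured genes were higher, 3.61% lower and 7.20% different either way. Between the 2 constructs, 3 of 10 members were lower in nm23-H1 cells and 0 higher, beside 3.81% of all measured genes lower, 3.76% higher and 7.56% different either way. The median log2 difference of the members was -0.50 for nm23-H1 and 0.19 for nm23-H2, each against vector, and -0.64 between the 2 constructs. Over all measured genes these medians were 0, -0.06 and 0.08. Against vector with nm23-H1, 10 of 10 members were below 0 by the probe set used, but S100A2, S100A4 and S100A10 by less than the probe error. These genes were slightly above 0 in the values as deposited, and S100A13 was at 0.15 with the mean of its probe sets. The count for nm23-H1 rests on 3 neighbouring genes, and S100A8 and S100A9 alone made up the count for nm23-H2.

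S100A8 had a further probe set, and it was dim. Its signal was 0.718 with nm23-H1, 52.6 with nm23-H2 and 6.75 with vector, so only the nm23-H2 value was above the floor. It gave no difference between nm23-H1 and vector, both being at the floor, and a level at least 1.86-fold higher with nm23-H2 than with vector. The unfloored readings had the order of the brighter probe set, but readings under the floor carry no weight here. With the mean of both probe sets, S100A8 differed from vector by -1.53 with nm23-H1 and 1.21 with nm23-H2, and by -2.74 between the 2, each still past 2-fold. S100A9 and S100A7 have 1 probe set each, and no further probe set bears on them.

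**Figure D2:**
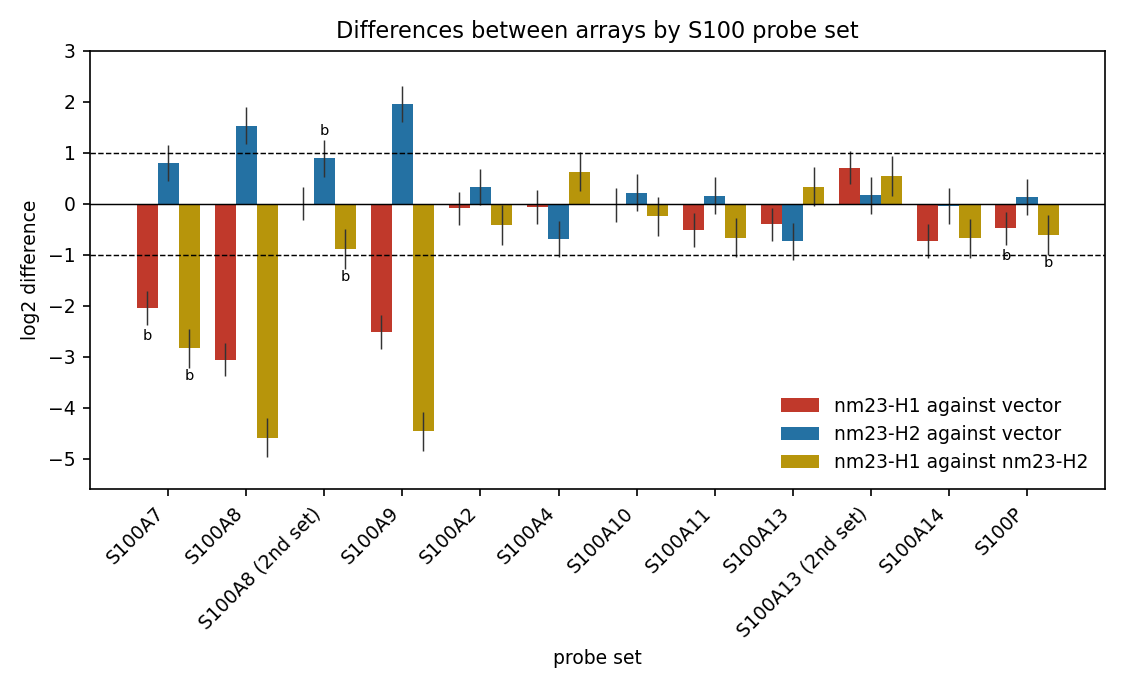
Log2 difference of each S100 probe set, as bars for nm23-H1 against vector (red), nm23-H2 against vector (blue), and the 2 constructs against each other (nm23-H1 over nm23-H2, yellow). Error lines are the probe error (SD over all genes with several probe sets, 0.33, 0.36 and 0.39), dashed lines mark 2-fold, and the letter b marks a bound where 1 array was at the floor. Bars past the dashed lines belong to S100A7, S100A8 and S100A9.

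S100A7, S100A8 and S100A9 lie within 102798 bases of each other on chromosome 1 (153357854 to 153460651 in assembly GRCh38.p14), S100A9 first, then S100A12, S100A8 and S100A7. Because these 3 genes moved together, the stretches around their start sites are shown, from 250 bases before the start to 50 bases from it onward, 5′ to 3′ on the gene's strand, as given by RefSeq for GRCh38.p14. They are chr1:153357604-153357903 (plus strand) for S100A9, chr1:153391024-153391323 (minus strand) for S100A8 and chr1:153460602-153460901 (minus strand) for S100A7. For S100A8 the middle one of 3 listed starts was taken. Capitals mark the TATA box letters TATAAA.
S100A9: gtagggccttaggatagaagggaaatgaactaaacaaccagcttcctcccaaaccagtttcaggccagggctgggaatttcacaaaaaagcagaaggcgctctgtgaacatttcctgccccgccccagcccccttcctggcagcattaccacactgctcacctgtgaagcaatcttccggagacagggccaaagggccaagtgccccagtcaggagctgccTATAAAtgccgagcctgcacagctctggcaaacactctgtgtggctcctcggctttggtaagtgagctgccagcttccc
S100A8: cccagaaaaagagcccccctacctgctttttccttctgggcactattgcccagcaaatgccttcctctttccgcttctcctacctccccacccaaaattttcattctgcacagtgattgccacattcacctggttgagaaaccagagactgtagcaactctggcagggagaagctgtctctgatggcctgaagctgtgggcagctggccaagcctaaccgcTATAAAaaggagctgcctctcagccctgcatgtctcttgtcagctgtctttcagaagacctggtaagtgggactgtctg
S100A7: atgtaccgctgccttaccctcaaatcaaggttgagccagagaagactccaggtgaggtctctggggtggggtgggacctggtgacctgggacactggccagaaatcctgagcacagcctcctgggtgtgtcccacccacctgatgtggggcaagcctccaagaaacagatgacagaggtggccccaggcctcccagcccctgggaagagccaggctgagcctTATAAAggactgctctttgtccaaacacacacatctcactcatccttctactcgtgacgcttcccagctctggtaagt

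In these stretches TATAAA begins 29 bases before the start of S100A9, 29 before that of S100A8 and 28 before that of S100A7. Among all 35116 such windows of 300 bases in the RefSeq table, 2.30% hold TATAAA on the gene's strand beginning 40 to 20 bases before the start, and 11.5% hold it anywhere on either strand. The box is not particular to the 3 genes that differed between arrays: S100A4, S100A13 and S100P hold it 31, 29 and 28 bases before a listed start, so 6 of the 10 members have it. Counted by window, as the 2.30% is, 6 of 15 have it there. The other listed starts of S100A8 and S100A13 do not. The AP-1 letters TGANTCA occur in the windows of 1 member, S100A2, and in 7.71% of all windows. The C/EBP letters TTNNGCAA also occur in 1 member, S100A11, and in 10.5% of all windows, and the kappa B motif in S100A14 alone and in 11.3% of all windows. Both strands were searched, over all 15 listed windows of the members. A match describes letters in the window and no more.

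S100A2, S100A4, S100A10, S100A11, S100A13 and S100A14 stayed under 2-fold in each of the 3 comparisons, and S100P had only a bound with nm23-H1. S100A10, which partners annexin A2 and does not bind calcium, gave 4445 signal units with nm23-H1, 5277 with nm23-H2 and 4540 with vector. Its log2 differences from vector, -0.03 with nm23-H1 and 0.22 with nm23-H2, were both smaller than the probe error over all genes, although the second exceeds the 0.19 of bright probe sets. The first was 0.08 with the values as deposited. S100A2, a nuclear S100 protein of basal keratinocytes, gave 8087 with nm23-H1, 10804 with nm23-H2 and 8624 with vector. Its differences from vector were -0.09 and 0.33, within the probe error over all genes, the second again above that of bright probe sets. The nm23-H2 value was -0.02 after quantile normalization and 0.65 with the values as deposited, so its sign depended on the scaling.

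S100A11, a partner of annexin A1, was lowest with nm23-H1, at 3217 signal units, against 5117 with nm23-H2 and 4592 with vector. It was 1.43-fold lower than vector with nm23-H1 (-0.51), which is 1.56 times the probe error over all genes and also above the 0.16 of bright probe sets. With nm23-H2 S100A11 differed by 0.16, within the probe error and of the other sign (-0.07) after quantile normalization. The reference table lists 10 pseudogenes of S100A11. Whether its probe set also reads a copy is not known here.

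S100A14, an epithelial S100 protein, was read at 178 signal units with nm23-H1, 285 with nm23-H2 and 294 with vector. With nm23-H1 it was 1.66-fold lower than vector (-0.73), which is 2.21 times the probe error. The nm23-H2 and vector arrays did not differ beyond that error (-0.05, and 0.28 with the values as deposited). S100A14 and S100A11 were thus lower on the nm23-H1 array than on both others, without reaching 2-fold.

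S100A4 was lowest on the nm23-H2 array, and so was the brighter probe set of S100A13. S100A4, a partner of non-muscle myosin linked to cell motility and metastasis, gave 196 signal units with nm23-H1, 127 with nm23-H2 and 205 with vector. Its level in nm23-H2 cells was 1.61-fold under that of vector cells (-0.69, or 1.93 times the probe error), and the nm23-H1 difference of -0.06 was within the error, with 0.05 for the values as deposited. S100A13 takes part in the release of FGF1 from cells, and its brighter probe set gave 715, 568 and 948 signal units on the nm23-H1, nm23-H2 and vector arrays. That was 1.33-fold lower than vector with nm23-H1 (-0.41) and 1.67-fold lower with nm23-H2 (-0.74).

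The 2 probe sets of S100A13 disagreed in their differences from vector. The further one gave 47.5 signal units with nm23-H1, 32.6 with nm23-H2 and 29.1 with vector, close to the floor, and differences from vector of 0.71 and 0.16. Between the 2 constructs both were higher with nm23-H1, by 0.33 in the brighter (within the probe error) and 0.54 in the further one. Because they disagreed against vector, no direction from vector is given for S100A13. Its annotated span overlaps S100A1 and CHTOP, that of S100A8 overlaps S100A7A, and that of S100A4 overlaps S100A5, and probe positions were not used here. S100A4 has 1 probe set.

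S100P, which binds ezrin and is made in many carcinomas, was close to the floor. It gave 3.28 signal units with nm23-H1, 43.3 with nm23-H2 and 39.6 with vector. The nm23-H1 value was under the floor, so its level was at least 1.40-fold lower than vector, and nm23-H2 and vector differed by 0.13, within the probe error. A floor at the 25th percentile gave a difference of -2.27 between nm23-H1 and vector, adding 16 to each signal without any floor gave -1.53, and no array exceeded a floor at the 70th percentile. The size of the S100P difference was thus set by the treatment of low signals.

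**Figure D3:**
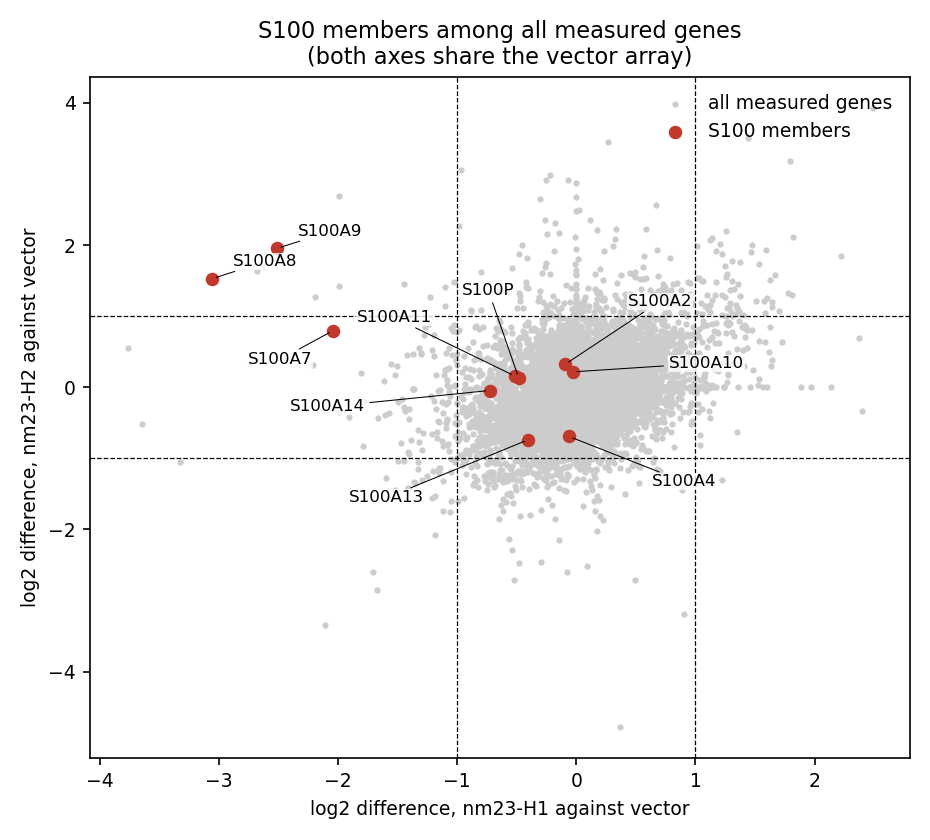
Log2 difference of nm23-H1 against vector (x axis) and of nm23-H2 against vector (y axis) for the 7986 measured genes (grey) and the 10 S100 members (red), with dashed lines at 2-fold. Both axes share the vector array. S100A8 and S100A9 lie past 2-fold on both axes, S100A7 on the x axis, and the other 7 members inside both pairs of lines, S100A7 and S100P being drawn at their bounds on the x axis.

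On chromosome 1 the 9 members other than S100P, which is on chromosome 4, lie in an interval of 1651447 bases from S100A10 to S100A13 (151982915 to 153634361). Of its 94 annotated genes, 20 were measured. From S100A9 to S100A7, 4 of 4 measured genes were lower in nm23-H1 cells than in vector cells by 2-fold or more, beside 1.73% of all measured genes. The stretch is bounded by members already found lower, and S100A8 within it was too, so only S100A12 adds to them. S100A12 is a calgranulin of neutrophils and no member. S100A12 gave 26.4 signal units with nm23-H1, 61.1 with nm23-H2 and 77.0 with vector, so it was at least 2.72-fold lower with nm23-H1. Unlike its neighbours S100A9 and S100A8 it was not higher with nm23-H2 than with vector (-0.33, within the probe error). From S100A6 to S100A13, the stretch that follows, 0 of 6 genes reached 2-fold in any comparison, and their differences lay between -0.78 and -0.06 from vector with nm23-H1 and between -0.74 and 0.33 with nm23-H2.

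Before S100A9 comes a stretch with no S100 gene that holds the SPRR genes, which encode proline-rich building blocks of the cornified envelope. There 4 of 8 measured genes were past 2-fold on the lower side in nm23-H1 cells: SPRR1A (-3.65), SPRR3 (at most -3.33), SPRR1B (-2.74) and SPRR2B (at most -1.81). With nm23-H2 the same 4 differed from vector by -0.52, -1.05, 0.32 and 0.20. None of these 4 was thus 2-fold higher with nm23-H2, whereas S100A8 and S100A9 were. S100A10 and S100A11, at the near end of the interval, were under 2-fold. Over the whole interval 19 of 20 measured genes were below 0 with nm23-H1 (median -0.65, beside 0 over all measured genes), and the 8 past 2-fold were the 4 SPRR genes and the 4 from S100A9 to S100A7. With nm23-H2, 9 of 20 were below 0 (median 0.15).

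**Figure D4:**
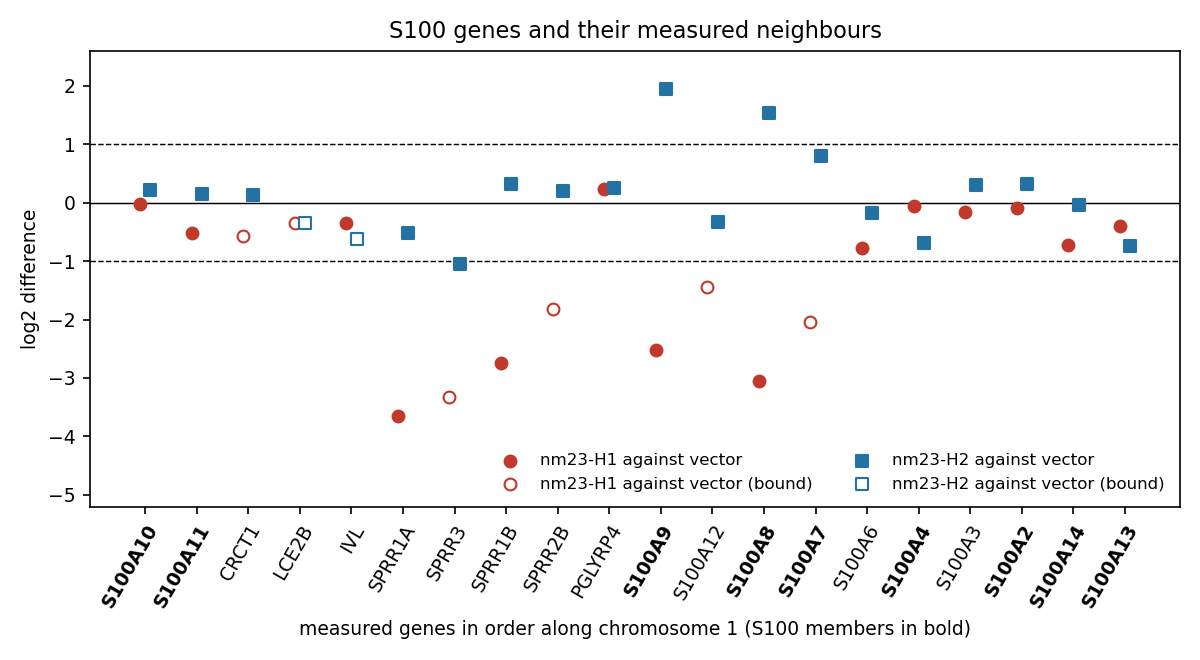
Log2 differences from vector for the 20 measured genes between S100A10 and S100A13, in their order along chromosome 1, for nm23-H1 (circles) and nm23-H2 (squares). Open symbols are bounds with 1 array at the floor, members are in bold, and dashed lines mark 2-fold. Low nm23-H1 values sit from SPRR1A to SPRR2B and from S100A9 to S100A7, and values past 2-fold with nm23-H2 are those of S100A8, S100A9 and, on the lower side, SPRR3.

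Among other S100 genes, 3 of 7 on the array were measured, S100A3, S100A6 and S100A12. S100A6, calcyclin, gave 2035 signal units with nm23-H1, 3099 with nm23-H2 and 3497 with vector, which was 1.72-fold lower with nm23-H1 (-0.78) and within the probe error with nm23-H2 (-0.17). S100A1, S100A5, S100B and S100G were under the floor on all 3 arrays. So were FLG, TCHH and CRNN, fused-type S100 genes of the cornifying epidermis, the 3 of 7 such genes that the array measures alone.

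Intracellular partners of S100 proteins were mostly under 2-fold by the probe set used. Of 16 measured, 1 was lower by 2-fold and 0 higher in nm23-H1 cells than in vector cells (median -0.24), and 1 was higher and 0 lower with nm23-H2 (median 0.16). MYH9, the non-muscle myosin heavy chain bound by S100A4, gave 186 signal units with nm23-H1, 638 with nm23-H2 and 459 with vector, a difference of -1.30 with nm23-H1. IL1A, a cytokine released with S100A13, gave 21.1 with nm23-H1, 174 with nm23-H2 and 34.1 with vector, a difference of 2.35 with nm23-H2, while its further probe set was under the floor on all 3 arrays. ANXA2, the partner of S100A10, gave 4915, 6113 and 5338 signal units on the nm23-H1, nm23-H2 and vector arrays. Like S100A10 it stayed within the probe error over all genes (-0.12 and 0.20 from vector), the second just above the 0.19 of bright probe sets. AHNAK, a scaffold bound by S100A10 with annexin A2, differed by -0.68 with nm23-H1, but by 0.37 in its further, dimmer probe set. CACYBP, a partner of S100A6, differed by -0.90 with nm23-H2, and its other probe sets above the floor gave 0.45 and 0.13. IQGAP1, a scaffold protein, differed by -0.24 with nm23-H1, and by 0.14 and -1.14 in its further probe sets.

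Of the receptors of extracellular S100 proteins 6 of 9 on the array were measured, and 0 reached 2-fold with nm23-H1 (median 0.23). CD14, a co-receptor of TLR4, was a bound, at least 1.77-fold higher with nm23-H1 than in the vector cells, where it was under the floor. With nm23-H2 1 of 6 was at least 2-fold higher and 0 lower (median 0.11). That one was MCAM, a receptor of calprotectin, at 36.6 signal units with nm23-H1, 59.0 with nm23-H2 and 25.3, under the floor, with vector. BSG, or basigin, a receptor of S100A9, differed by -0.24 with nm23-H1 and -0.71 with nm23-H2, and NPTN, neuroplastin, a receptor of S100A8, by 0.31 and 0.22. ALCAM, a cell adhesion molecule, differed by -0.54 and -0.38. AGER, which encodes RAGE, was near the floor at 31.4, 36.8 and 27.5 signal units on the nm23-H1, nm23-H2 and vector arrays. TLR4 was not among the measured genes.

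Genes that squamous epithelium switches on with S100A7, S100A8 and S100A9 under stress did not all share their pattern. Of 15 measured, 7 exceeded the floor on the nm23-H2 array alone by the probe set used, SERPINB3, SERPINB4, IL36G, IL36RN, CXCL8, CXCL1 and CXCL2. By these probe sets they could be counted only as higher there, and had no difference between nm23-H1 and vector. The further probe set of SERPINB3 was above the floor on all 3 arrays and differed from vector by 0.28 with nm23-H1 and 1.20 with nm23-H2. That of CXCL8 exceeded the floor with nm23-H2 alone, at 488 signal units. Of the other 8, 3 were past 2-fold lower and 0 higher in nm23-H1 cells, and 4 were higher and 0 lower in nm23-H2 cells. The higher ones were LCN2, IL1A, IL1B and IL1RN. The lower ones were PI3, the protease inhibitor elafin, SLPI, another such inhibitor, and IL1RN, the interleukin 1 receptor antagonist. PI3 gave 104 signal units with nm23-H1, 2086 with nm23-H2 and 1420 with vector, and LCN2, an iron-scavenging lipocalin, 120 with nm23-H1, 1960 with nm23-H2 and 235 with vector. PI3 therefore differed mainly with nm23-H1 (-3.77, against 0.56 with nm23-H2) and LCN2 mainly with nm23-H2 (3.06, against -0.97 with nm23-H1). IL1B, an inflammatory cytokine, gave 96.7 with nm23-H1, 425 with nm23-H2 and 97.6 with vector. IL1RN differed by -1.03 and 1.49 by the probe set used. Its further probe sets above the floor gave 0.01 and 0.39, and -1.02 (a bound) and 1.14.

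Of the cornified envelope genes, 6 of 12 measured were at least 2-fold lower and 0 higher with nm23-H1 (median -0.90), the 4 SPRR genes above, CSTA (-1.30), a protease inhibitor, and TGM1 (-1.23). With nm23-H2, 3 were lower, SPRR3, KRT1 and KRT10, and 1 higher than vector (median -0.43). The higher one was TGM1, the transglutaminase that links the envelope, at 36.6 signal units with nm23-H1, 208 with nm23-H2 and 85.8 with vector. KRT1 and KRT10, the keratin pair of cornifying cells, differed from vector by -1.52 and -1.10 with nm23-H2.

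Transcription factors linked to S100 promoters were compared as well. Of 16 measured, 0 reached 2-fold with nm23-H1 (median -0.13), and 2 were at least 2-fold higher and 0 lower with nm23-H2 (median 0.37). These were CEBPB, a regulator of myeloid and stress genes, at 1062 signal units with nm23-H1, 2858 with nm23-H2 and 950 with vector, and FOSL1, an AP-1 subunit, at 240 with nm23-H1, 2291 with nm23-H2 and 477 with vector. Between nm23-H1 and nm23-H2, 4 of 16 were at least 2-fold lower, CEBPB (-1.43), FOSL1 (-3.25), KLF4 (-1.79) and JUNB (-1.01). Of all measured genes 3.81% were lower in that comparison. JUN, another AP-1 subunit, differed by -0.41 there, a bound near the floor, by the probe set used. A further, brighter probe set of JUN gave -1.56, and -0.82 and 0.74 from vector with nm23-H1 and nm23-H2. KLF4, a factor of epithelial differentiation, differed from vector by -0.99 with nm23-H1 and 0.81 with nm23-H2, but by 0.09 and 0.26 in its further, dim probe set. STAT3, a cytokine-activated factor, differed from vector by 0.51 with nm23-H2 by the probe set used and by 1.45 in its further one. CEBPA, a factor of myeloid and epithelial differentiation, differed by -0.18 and -0.77.

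Because S100A8 and S100A9 are also made by myeloid cells, myeloid markers were set beside them. Of 8 listed, 6 could be read and 3 exceeded the floor on 1 array or more, CD14, ITGAM and CSF1R. CD14 gave 50.1 signal units with nm23-H1, 18.6 with nm23-H2 and 23.5 with vector. The summed signal of the 6 was 146 with nm23-H1, 74.9 with nm23-H2 and 134 with vector, but most of these readings were under the floor, and with nm23-H2 ITGAM alone exceeded it. The part of myeloid cells in the S100A8 and S100A9 differences was not tested. PTPRC, the pan-leukocyte marker, was under the floor on all 3 arrays (2.67 with nm23-H1, 3.26 with nm23-H2 and 8.74 with vector), and so were LYZ and MPO. The 7 squamous markers summed to 26730 with nm23-H1, 41536 with nm23-H2 and 31104 with vector, and 0 of them differed from vector by 2-fold by the probe set used. Of their further probe sets, one of SFN differed by 1.34 with nm23-H2 and one of EGFR by 1.04 with nm23-H1. Among fibroblast, endothelial and melanocyte markers 1 of 6, 1 of 4 and 2 of 3 were above the floor on any array by the probe set used. Counting further probe sets, 3 of the 6 fibroblast markers were, with the brightest, of COL1A1, at 168 (nm23-H1), 152 (nm23-H2) and 123 (vector) signal units. COL1A1 and DCN exceeded the floor only by probe sets named _x_at, and their other probe sets were under it on all 3 arrays. In these bulk RNA samples fewer cells making a transcript and less RNA per cell cannot be told apart.

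The genes with the pattern most like these members were sought among 5024 genes whose brighter array reached 66.2 signal units, by the straight-line distance between the 2 log2 differences from vector, a measure over 3 arrays. VEGFA, an angiogenic growth factor, was nearest to S100A9 (distance 0.36) and to S100A8 (0.39). DUSP6, a phosphatase of ERK, and CHAC1, a glutathione-degrading enzyme, came next for S100A9 (0.75 and 0.74) and S100A8 (0.90 and 1.07). For S100A7 the nearest were DUSP6 (0.50), SBF1 (0.51) and CHAC1 (0.63). VEGFA gave 25.1 signal units with nm23-H1, 563 with nm23-H2 and 182 with vector, so its nm23-H1 difference is a bound. Its further probe sets differed from vector by between -0.89 and -0.36 with nm23-H1, where -0.45 is a bound. With nm23-H2 they differed by between 0.55 and 1.40, beside 1.63 in the probe set ranked here. The further probe sets of DUSP6 differed by -0.96 and, as a bound, -0.65 with nm23-H1, and those of SBF1 above the floor by -0.80 and -0.17, all smaller than in the probe sets ranked here. With nm23-H2 those of DUSP6 gave 0.82 and 2.56, beside 1.28 in the ranked one. Those of SBF1 gave 0.04 and 0.24, beside 0.31. S100A7, VEGFA and CHAC1 are bounds with nm23-H1, so distances that involve them are those of the bounds.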

How the data were processed

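Total RNA of 3 transfected CAL 27 lines was measured on 1 Affymetrix array each. The deposited files give 1 linear intensity per probe set and array, from MAS5 per the submitters' processing notes. Its version and scaling target are not given in the sources used here. No detection calls were used.

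Each array was multiplied (nm23-H1 by 1.03, nm23-H2 by 0.881, vector by 1.11) to a common mean between the 2nd and 98th percentiles. Lower values were raised to a floor of 28.3, the median over all arrays, before log2 differences were taken. Each gene was read by its brightest probe set, one named _x_at only where it had no other. Of all probe sets, 19071 had a single symbol, 1043 several and 2169 none. A difference counted at 2-fold. With 1 array per group there was no test. Gene positions and promoter windows came from RefSeq, GRCh38.p14.

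The members and gene lists were chosen with earlier results of these data known. Named were all members, up to 4 genes per list with the largest difference from vector among those reaching the 70th percentile of signal (66.2), the genes behind counts of 5 or fewer, and the 3 nearest in pattern. ANXA2, AGER, TLR4, S100A3, IQGAP1, STAT3, JUN, CD14, the genes above the floor on 1 array and the single markers were named after their values were seen. Alternatives were 3 other scalings, 3 treatments of low signals, 2 other choices of probe set, each further probe set alone and a 1.5-fold threshold. The steps were tested on simulated data. Python 3.11.15, numpy 2.4.6, pandas 2.3.3 and matplotlib 3.10.9 were used.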

Additional observations from a re-analysis of the deposited data

How the results depend on the processing

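No paired analysis was possible because each group had 1 array, and for the same reason no array could be left out of a group. The 30 member differences were recomputed 243 times in all. Of these, 220 moved by less than the probe error, 23 moved by more and 0 that were past 2-fold changed sign. The 220 include settings that could not move a given member, such as the mean over probe sets for a member with a single one. S100A9 kept its 2-fold calls in all 8 alternatives for each comparison (-2.57 to -2.32 from vector with nm23-H1, 1.87 to 2.28 with nm23-H2). Its only probe set was above each floor on every array, so other floors and probe set choices could not move it. These ranges come from the other scalings and the added 16. S100A8 lost its 3 calls by its further probe set alone, which is also its probe set when names ending in plain _at were required (0, 0.89 and -0.89). S100A7 was under 2-fold against vector after a 70th percentile floor (-0.82) and past it with nm23-H2 in the values as deposited (1.13). S100P was past 2-fold lower with nm23-H1 when the floor was at the 25th percentile (-2.27 against vector, -2.40 against nm23-H2) or 16 was added (-1.53, -1.62).

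With plain _at probe sets 1 member, S100A9, was at least 2-fold different with nm23-H2, higher, beside 333 of all genes measured that way. S100A4 has no such probe set and was outside that count. At 1.5-fold, 5 of 10 members differed with nm23-H2, 2 of them lower, beside 1982 of the 7986 measured genes. Between nm23-H1 and nm23-H2, 7 of 10 differed at 1.5-fold, 1 higher and 6 lower, beside 2146 of the 7986. Of all measured genes, 309 were 2-fold different between nm23-H1 and vector, 575 between nm23-H2 and vector and 604 between the 2 constructs. After a 25th percentile floor these numbers were 1215, 1625 and 1747, of 10689 measured genes (11.4%, 15.2% and 16.3%). After one at the 70th they were 132, 304 and 306, of 5032 (2.62%, 6.04% and 6.08%). With plain _at probe sets, which fewer genes have, they were 182, 333 and 346. At 1.5-fold they were 1290, 1982 and 2146. Higher and lower genes numbered 171 and 138, 287 and 288, and 300 and 304 for the 3 comparisons. With the values as deposited they were 209 and 93, 634 and 107, and 171 and 499, and with a common median 245 and 380 and then 404 and 256 for the 2nd and 3rd. Quantile normalization gave 234 and 339 for the 3rd. The values as deposited moved the median of all genes to 0.17 between nm23-H2 and vector and -0.07 between the 2 constructs, in place of -0.06 and 0.08. The cause of these shifts was not tested. Signals near the floor limit what can be said of S100A7, S100A12 and S100P.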
